A study of Mus musculus with 6 samples.

Results

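Barcodes that carried collagen RNAs but no Ptprc, the RNA of the pan-leukocyte receptor CD45, were examined in single-cell RNA sequencing libraries of the mouse small intestinal mucosa. Members were selected on their measured UMIs. A barcode was taken when it had at least 500 unique molecular identifiers (UMIs, 1 per captured RNA molecule), at least 200 genes, no Ptprc UMI and at least 3 of 7 RNAs of connective tissue matrix or its cells, namely Col1a1, Col1a2, Col3a1, Dcn, Lum, Pdgfra and Col6a1. This gate took 104 of 60431 barcodes with at least 500 UMIs and 200 genes (0.172%), and these are called gated barcodes below. The gate was meant to collect fibroblasts of the lamina propria, but the data went against that name for most members, as described after the counts. The tissue is labelled small intestinal epithelium, and cells had been released with EDTA and TrypLE, an enzyme that cuts like trypsin.

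The libraries came from 3 IE-HuR-/- mice and 3 control littermates, with 1 library per animal. IE-HuR-/- mice carry HuR fl/fl alleles and villin-Cre, a recombinase driven by an epithelial promoter, and the controls carry HuR fl/fl without Cre and are labelled wild-type. All mice were C57BL/6, 6 to 8 weeks old, and had been without food for 24 h. Since villin-Cre acts in epithelial cells, the HuR gene of stromal cells is intact by design in both groups. The gated barcodes also held epithelial RNA, and by design epithelial cells of IE-HuR-/- mice lose HuR. Of the gated UMIs 12.1% were in 7 barcodes with more UMIs of epithelial markers than of the gate RNAs.

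Fibroblasts under the intestinal epithelium build the collagen scaffold and secrete signals that keep the crypt in balance. Wnt ligands and R-spondins sustain stem cells at the crypt base, BMP ligands from cells near the villus promote differentiation, and secreted antagonists such as Gremlin 1 shield the crypt from BMP. Pdgfra marks fibroblasts of several layers, with high levels in cells beneath the epithelium, and Dpt and Pi16 mark fibroblasts found around vessels in many organs. The outer surface of the gut is covered by mesothelial cells, a flat serosal layer that has keratins together with matrix RNAs and for which Msln, Upk3b and Lrrn4 are well known markers.

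The control libraries of replicates 1, 2 and 3 held 25, 39 and 15 gated barcodes, with 286356, 263691 and 176523 UMIs. The libraries labelled IE-HuR-/- held 6, 7 and 12, with 61811, 55066 and 72358 UMIs. The IE-HuR-/- sums were thus shallower, and every comparison by label rests on 25 barcodes on that side. The median gated barcode had 7607 UMIs and 2884 genes, and the range was 825 to 52293 UMIs. Of all gated UMIs 1.45% came from the 7 gate RNAs, of which Dcn, the RNA of the proteoglycan decorin, was the most abundant with 8630 UMIs.

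The rule used the gate RNAs, so their levels are a description. Dcn gave 2634, 2293 and 1549 UMIs in the control and 896, 495 and 763 UMIs in the IE-HuR-/- libraries. Col3a1, which encodes type III collagen, gave 672, 397 and 247 UMIs against 362, 106 and 198. Col1a2, a chain of type I collagen, gave 393, 267 and 126 UMIs against 180, 81 and 127. Every library thus had these 3 RNAs. Pdgfra did not follow them: it gave 39, 0 and 2 UMIs in the control and 12, 0 and 2 in the IE-HuR-/- libraries, and was detected in 14 of 104 gated barcodes. The members just inside the gate, 21 barcodes with 3 gate RNAs, included 3 with at least 2 of Msln, Upk3b and Lrrn4, and of the 28 barcodes just outside, with 2 gate RNAs, 7 had them. Among members with more gate RNAs these numbers were 8 of 15 with 4, 35 of 39 with 5, 20 of 20 with 6 and 0 of 9 with all 7.

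The mesothelial markers decided against the name fibroblast for most members. Msln, Upk3b and Lrrn4 were all present, with Upk3b the most abundant at 1726 UMIs, and their summed level was 2703, 4998 and 3886 CPM (UMIs scaled to a common total per sum) in the control and 3834, 2869 and 3455 in the IE-HuR-/- libraries. In all other barcodes it was 1.42 CPM. At least 2 of the 3 markers were detected in 66 gated barcodes (63.5%), which held 76.2% of the gated UMIs, and 53 barcodes had all 3. By library these 66 were 13, 27 and 12 in the controls and 4, 4 and 6 in the IE-HuR-/- libraries, so each library had some. One of the 4 in IE-HuR-/- replicate 2, with 20967 UMIs, had just 1 Upk3b and 1 Lrrn4 UMI. It held 1032 UMIs of Muc2, the goblet cell mucin, 1295 of Tff3 and 15 of Cd74. It is also among the 7 barcodes with more epithelial than gate UMIs described below. Other weak members of the 66 included a barcode of control replicate 1 with 1 Msln, 1 Upk3b and 139 Fabp2 UMIs. Some in control replicate 2 also had just 1 Upk3b and 1 Lrrn4 UMI, and none of Slpi, Rspo1 or Wnt5a. A second set of 8 barcodes had both Pdgfra and Dpt and no UMI of Msln, Upk3b or Lrrn4, and 6 of them were in control replicate 1 and 2 in IE-HuR-/- replicate 1. The remaining 30 barcodes were mostly shallow, with a median of 1610.5 UMIs against 8979.5 in the 66 and 10592 in the 8. The split into these sets was made after the values were seen and is given without a test.

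**Figure D1:**
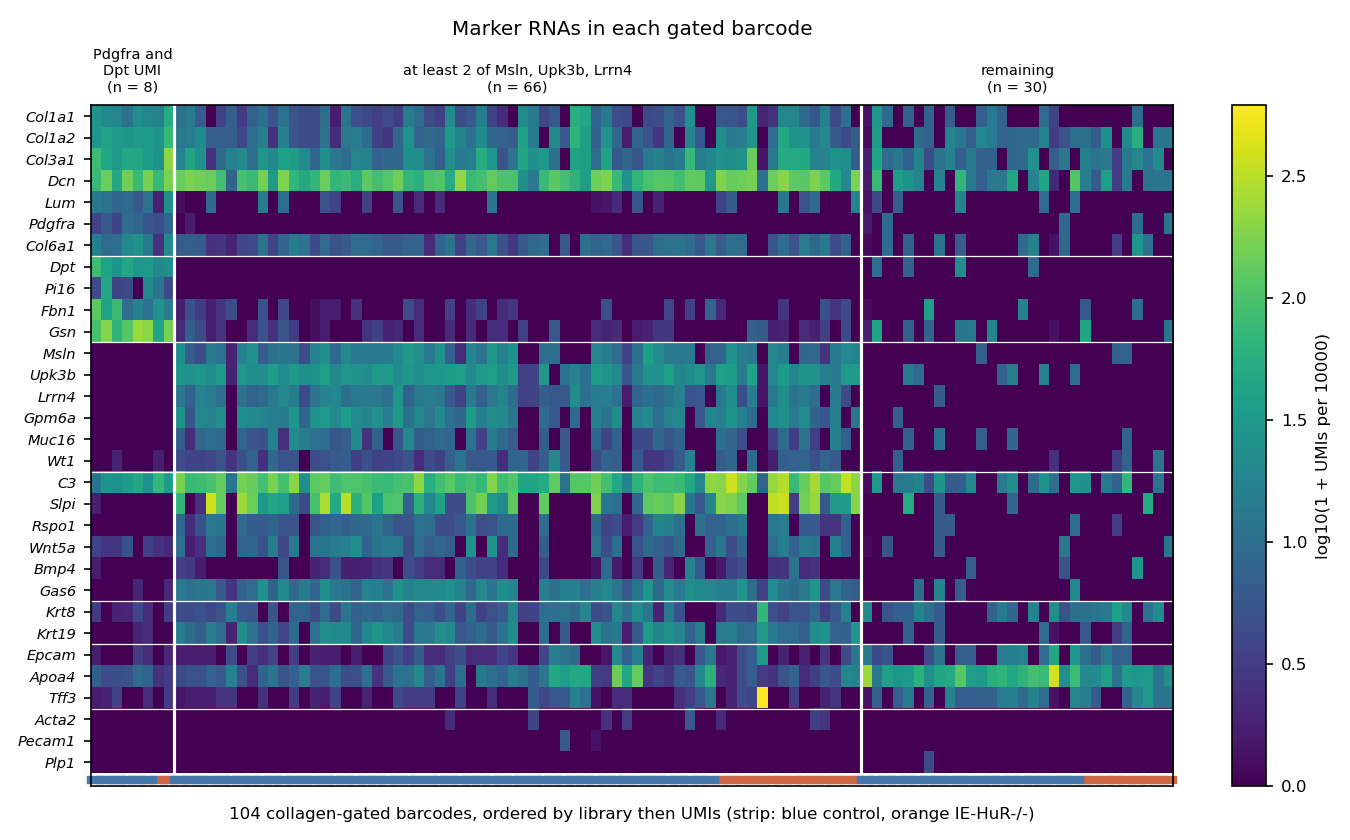
UMIs of 31 RNAs in each of the 104 gated barcodes, as log10(1 + UMIs per 10000). Columns are barcodes in 3 sets, ordered by library and then by UMIs, with the label on the strip below. The 8 barcodes with Pdgfra and Dpt lack Msln, Upk3b and Lrrn4, the 66 in the middle have C3 and many also Slpi, Rspo1 and Wnt5a, and the remaining 30 carry few of either.

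Both sets had collagen RNAs, with Col3a1 at 6279 CPM in the 8 and 1931 in the 66, while several other RNAs were far apart. The 8 barcodes with Pdgfra and Dpt had 3868 Dpt, 1121 Pi16, 4541 Fbn1 (fibrillin 1) and 12917 Gsn (gelsolin) CPM. The 66 had 0, 0, 91.7 and 119 of these. Conversely the 66 had 2461 Upk3b, 3443 Fmo2, 10018 Slpi and 1698 Gpm6a CPM, and the 8 had 0, 0, 11.2 and 0. Dcn was close in both, at 10845 CPM in the 66 and 10764 in the 8. Krt19, a keratin of epithelia and mesothelium, was at 1364 CPM in the 66 and 22.4 in the 8. Since the 8 barcodes came from replicate 1 of each label, those libraries stood apart for Gsn and Dpt. Gsn gave 991 UMIs in control replicate 1 and 213 in IE-HuR-/- replicate 1, but 25 and 14 in control replicates 2 and 3 and 22 and 9 in the others. Dpt gave 302 and 47 UMIs in the first replicates and 5, 0, 0 and 0 in the rest.

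Markers of other stromal and blood cells were mostly low, with a few exceptions. The 6 smooth muscle markers summed to 98 UMIs, of which Tagln gave 72, and the smooth muscle myosin Myh11 gave 1. The sum was 27.9, 49.3 and 56.6 CPM in the control libraries, 32.4 and 0 in IE-HuR-/- replicates 1 and 2 and 898 in replicate 3. The 6 pericyte markers summed to 17 UMIs, the 6 blood endothelial markers to 51 (38 of them Kdr, the VEGF receptor 2, at 41.5 CPM against 0.0491 in other barcodes), the 4 lymphatic endothelial markers to 2, the 4 enteric glial markers to 5, the 5 T or NK cell markers to 14 the 5 B or plasma cell markers to 5 and the 5 erythroid markers to 60. The defining endothelial markers Cdh5 and Emcn were at 0. Of the 2 markers of interstitial cells of Cajal, Ano1, a chloride channel, had 273 UMIs over all 6 libraries (298 CPM against 0.694 in other barcodes) and Kit had 0. The 6 myeloid markers summed to 300 UMIs, of which Cd74 gave 250 and Csf1r, the receptor of Csf1, 40 (43.7 CPM against 1.69 in other barcodes), while Cd68 gave 4 and Lyz2, C1qa and Itgax gave 2 each. Cd74 is also on the MHC class II list.

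Epithelial RNA was part of the sums and was uneven. The 12 abundant enterocyte RNAs summed to 15229, 5139 and 22275 CPM in the control and 2152, 18178 and 6122 in the IE-HuR-/- libraries, against 60864 CPM in all other barcodes. Apoa4, a lipoprotein component of enterocytes, was the most abundant of them. It was at 4882, 1138 and 9461 CPM in the control and 178, 454 and 580 in the IE-HuR-/- libraries. Reg3b and Reg3g went the other way, at 4159 and 7064 CPM in IE-HuR-/- replicate 2. Of the 9 members tested by label 7 were lower and 2 higher, with a median log2 difference of -1.04. None was called, and for 4 the libraries did not overlap on the TMM scale, beside 12.6% of all RNAs tested. The 10 secretory epithelial RNAs summed to 321, 709 and 266 CPM in the controls, 259 and 622 in IE-HuR-/- replicates 1 and 3 and 59329 in replicate 2, where Tff3, a goblet cell peptide, gave 1300 of its 1399 UMIs. There were 7 barcodes, with 12.1% of the gated UMIs, that had more UMIs of Epcam, Cdh1, Cldn7 and Vil1 than of the gate RNAs. Whether they were doublets was not tested.

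The RNAs that ranked highest in gated over other barcodes were Dcn, C3, Igfbp6, Slpi and others described here. This contrast was used for the choice of members and has no test. The 25 RNAs with the largest ratio had log2 ratios (pseudocount 20 CPM) between 5.54 and 8.69, with a median of 6.17. Dcn was first at 9423 CPM against 2.86 in other barcodes. It was followed by C3, the central complement component, at 9454 against 4.52, Igfbp6, a binding protein of insulin-like growth factor 2, at 6329 against 1.96, and Slpi, a secreted inhibitor of neutrophil proteases, at 7650 against 7.60. Rarres2, which encodes the chemoattractant chemerin, reached 4216 CPM against 1.07. Further down stood matrix and collagen-processing RNAs (Sparc, Col3a1, Aebp1, Timp2, Col1a2, Efemp1), Fmo2, Meg3, Gas1, Vim, the complement inhibitor Serping1, Lgals1, the caveolar RNAs Cav1 and Cavin1, Igfbp5, Igfbp7 and Ifitm3. Upk3b, Gpm6a and Msln were also among the 25. Upk3b, on chromosome 5 (GRCm38, 136038496 to 136046487, plus strand), was at 1407, 2461 and 1903 CPM in the control and 2071, 1235 and 1962 in the IE-HuR-/- libraries, and the groups overlapped. None of the 25 was called by label, which is near the background of 0.926% of all RNAs tested.

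Free RNA in the droplets gives UMIs in cells that do not make an RNA, so detection was set beside 11239 barcodes with a Cd3 UMI, which should lack these RNAs. Upk3b was detected in 68.3% of gated barcodes and 0.285% of the Cd3 barcodes, and Rspo1 in 54.8% and 0.0890%. The median depths were 7607 and 4441 UMIs. For these RNAs, which the gate did not use, detection was far above that in T cell barcodes of the same libraries.

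Of 96 niche ligands, antagonists and other signalling factors in 5 lists, 75 had a UMI in the gated barcodes, 36 had at least 20 and 21 had none. The most abundant was Gas6, the ligand of the TAM receptors Axl, Tyro3 and Mertk. It had 171, 353 and 219 UMIs in the control and 64, 50 and 82 in the IE-HuR-/- libraries. Of its 939 UMIs 930 were in the 66 barcodes with mesothelial markers. It was at 1333 CPM there and at 22.4 in the 8 with Pdgfra and Dpt.

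Among 19 Wnt ligands, Wnt5a, a ligand known mostly for signalling without β-catenin, gave 580 of 740 UMIs. Wnt5a had 116, 251 and 87 UMIs in the control and 34, 31 and 61 in the IE-HuR-/- libraries, or 617 ± 294 and 652 ± 166 CPM (SD, n = 3). The level in all other barcodes was 2.48 CPM. The 66 barcodes with mesothelial markers held 556 of the Wnt5a UMIs, at 797 CPM against 191 in the 8 with Pdgfra and Dpt. Wnt9a had 47 UMIs, Wnt4 had 44 and Wnt11 had 24, and the libraries of both labels overlapped for each. Wnt2b and Wnt3, which can act through β-catenin in the crypt, had 11 UMIs and 0.

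Rspo1 was the leading R-spondin, a family that amplifies Wnt signals through Lgr receptors. It gave 96, 150 and 91 UMIs in the control and 31, 33 and 27 in the IE-HuR-/- libraries, or 473 ± 122 and 491 ± 113 CPM (SD, n = 3), against 0.143 in other barcodes. Rspo1 lies on chromosome 4 (GRCm38, 124986430 to 125009099, plus strand). The groups overlapped on this scale. All but 4 of its 428 UMIs were in the 66 barcodes with mesothelial markers, and the 8 with Pdgfra and Dpt had 0. Rspo3 had 7 UMIs, all in those 8 barcodes, and Rspo2 and Rspo4 had 0.

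Among 9 BMP ligands Bmp4 led with 119 UMIs, at 18, 40 and 38 UMIs in the control and 6, 9 and 8 in the IE-HuR-/- libraries. It was at 143 ± 76.6 and 124 ± 35.1 CPM (SD, n = 3). The 66 barcodes with mesothelial markers held 113 of its UMIs, and the 8 with Pdgfra and Dpt held 1. Bmp2 had 23 UMIs, and at 25.1 CPM was no higher than in other barcodes at 28.6. The other 7 members had between 4 and 19 UMIs.

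Of 18 BMP and Wnt antagonists, 8 had at least 20 UMIs. Nbl1 (DAN), which binds BMP ligands, had 423 UMIs, Fstl1 385, Twsg1 250, Dkk3 64, Sfrp2 53, Fst 35, Chrdl1 32 and Chrd 27. Fstl1, a follistatin-like glycoprotein, was uneven: it gave 240, 63 and 23 UMIs in the control and 46, 1 and 12 in the IE-HuR-/- libraries. In the 8 barcodes with Pdgfra and Dpt it was at 2713 CPM, against 193 in the 66. Grem1, which encodes Gremlin 1, and Nog, which encodes Noggin, had 0 of 915805 UMIs, which allows up to 3.28 CPM from counting error alone. That limit is for the whole pool. The 8 barcodes with Pdgfra and Dpt held just 89185 of these UMIs, so the limit for them is higher.

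Among the other niche factors Fgf9 had 181 UMIs, Ptgs1 and Csf1 138 each, Tgfb2 103, Il33 94, Kitl 88, Angptl2 86 and Tgfb3 69. Fgf9 encodes a fibroblast growth factor, Ptgs1 a cyclooxygenase, Csf1 the growth factor of macrophages and Kitl stem cell factor. The 66 barcodes with mesothelial markers held 178 Fgf9 and 85 Kitl UMIs, and the 8 with Pdgfra and Dpt held 0 of each. Csf1 and Ptgs1 were at 303 and 235 CPM in the 8, against 155 and 163 in the 66. Slit2 had 51 UMIs, Fgf2 50, Vegfd 41, Igf1 35, Ptn 34, Vegfa 26, Ptgs2 24, Cxcl14 21 and Jag1 20. The chemokines Ccl11, Ccl7 and Ccl2 had 46, 44 and 21 UMIs, and gave a UMI in no library but replicate 1 of each label. Fgf10 was among the members with none.

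**Figure D2:**
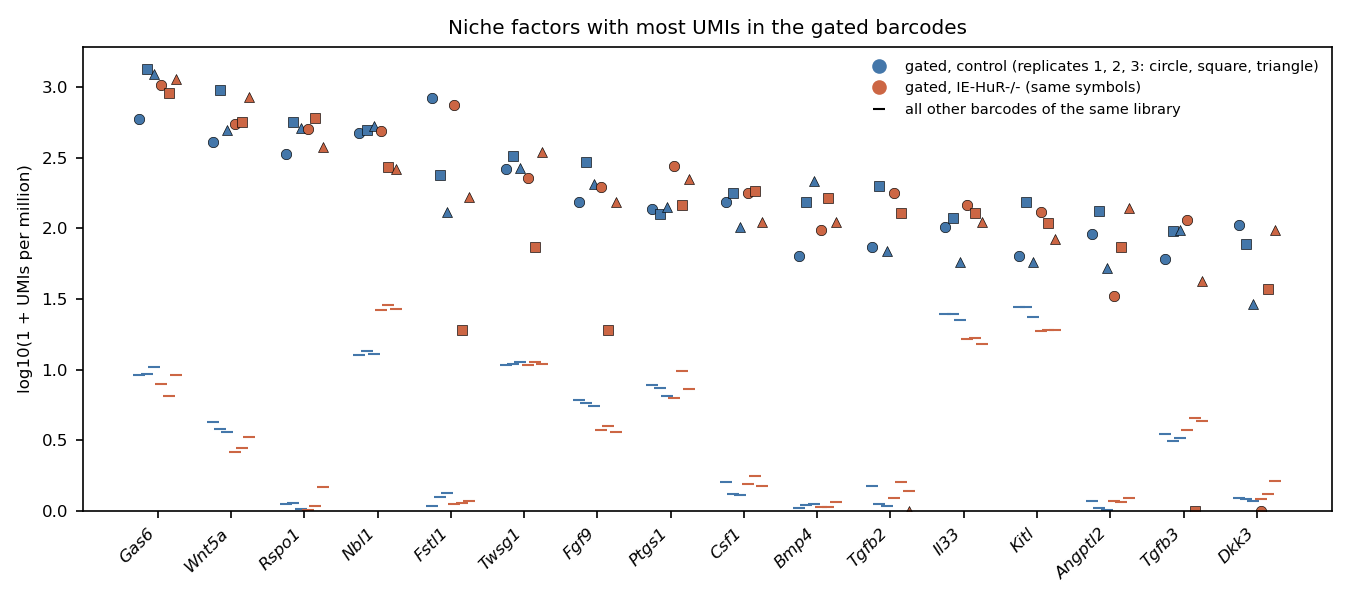
Level of the 16 niche factors with most UMIs, as log10(1 + CPM) in each library. Filled symbols are gated sums, blue for control and orange for IE-HuR-/-, and dashes are all other barcodes of the same library. Gas6 and Wnt5a lead, and for Rspo1 the gated level is between 335 and 599 CPM whereas other barcodes are at or below 0.471.

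By label, none of the 15 niche factors that passed the filter on low counts differed. The filter asked for the level that 10 UMIs give in a library of median size, in at least 3 libraries, and 81 members were too low for it. Of all 2051 RNAs tested 0.926% were called (edgeR quasi-likelihood test, Benjamini-Hochberg adjusted p under 0.05), so 0 of 15 is near the background. Their log2 differences (IE-HuR-/- over control) were between -0.70 for Fgf9 and 0.77 for Ptgs1, with a median of -0.05 beside 0.03 over all RNAs tested, and the lowest edgeR adjusted p was 0.551. For Rspo1 the difference was 0.18 ± 0.36 (SE) and for Wnt5a 0.20 ± 0.38, and a p that misses the threshold does not show equal levels. Ptgs1 was the 1 of the 15 with an unadjusted p under 0.05, and on the scale of TMM-scaled CPM of the tested RNAs the libraries of the labels did not overlap for 2 of the 15, Ptgs1 and Il33, beside 12.6% of all RNAs tested. On the scale of CPM those of Il33 overlapped.

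Matrix RNAs gave no call either, which is near the background of 0.926% of all RNAs tested. Of the 8 tested members of the collagen list beyond the gate, 7 were higher and 1 lower without passing the test, with a median log2 difference of 0.46. For 17 proteoglycans and other matrix RNAs 10 were higher and 7 lower with a median of 0.02, and for 7 collagen-processing RNAs 5 were higher and 2 lower with a median of 0.29. The gate RNAs, which the rule used, are given without a test. Col1a2 was at 1372, 1013 and 714 CPM in the control and 2912, 1471 and 1755 in the IE-HuR-/- libraries, with no overlap. Col1a1 was at 887, 614 and 527 against 1569, 617 and 732, and Col6a1 at 615, 565 and 550 against 777, 345 and 981. The groups overlapped for both, and also for Col3a1, Dcn, Lum and Pdgfra.

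IE-HuR-/- libraries had a lower share of gated barcodes. It was 0.250%, 0.259% and 0.165% in the control and 0.0671%, 0.0800% and 0.140% in the IE-HuR-/- libraries, or 0.225 ± 0.0522% and 0.0956 ± 0.0386% (SD, n = 3), and the groups did not overlap. The log2 ratio was -1.23, and the two-sided exact permutation test gave p = 0.1, the smallest that 3 against 3 libraries allow. The exact 95% binomial intervals, which cover counting error only, reached from 0.0922% to 0.271% in control replicate 3 and from 0.0721% to 0.244% in IE-HuR-/- replicate 3, so these neighbours did not differ beyond counting error. When every barcode was thinned to 1000 UMIs before the gate (17752 shallower barcodes left out), the shares were 0.226 ± 0.0473% and 0.0950 ± 0.0321%. The share of barcodes with at least 2 mesothelial markers was 0.147 ± 0.0281% and 0.0534 ± 0.0142%, with the same p. Shares depend on how much of the gut wall went into each suspension, whose part in the difference was not tested. Median UMIs of gated barcodes were 9822, 5711 and 10998 in the control and 10247.5, 4571 and 2475.5 in the IE-HuR-/- libraries and overlapped (exact permutation p = 0.3). Median genes gave the same p, and the median mitochondrial share was 4.34 ± 1.33% and 4.16 ± 0.457% (exact permutation p = 1, n = 3). These are medians over barcodes. In the gated sums all 12 tested mitochondrially encoded RNAs were lower under the IE-HuR-/- label. Their median log2 difference was -0.68 beside 0.03 over all RNAs tested. None of them was called, beside 0.926% of all RNAs tested.

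**Figure D3:**
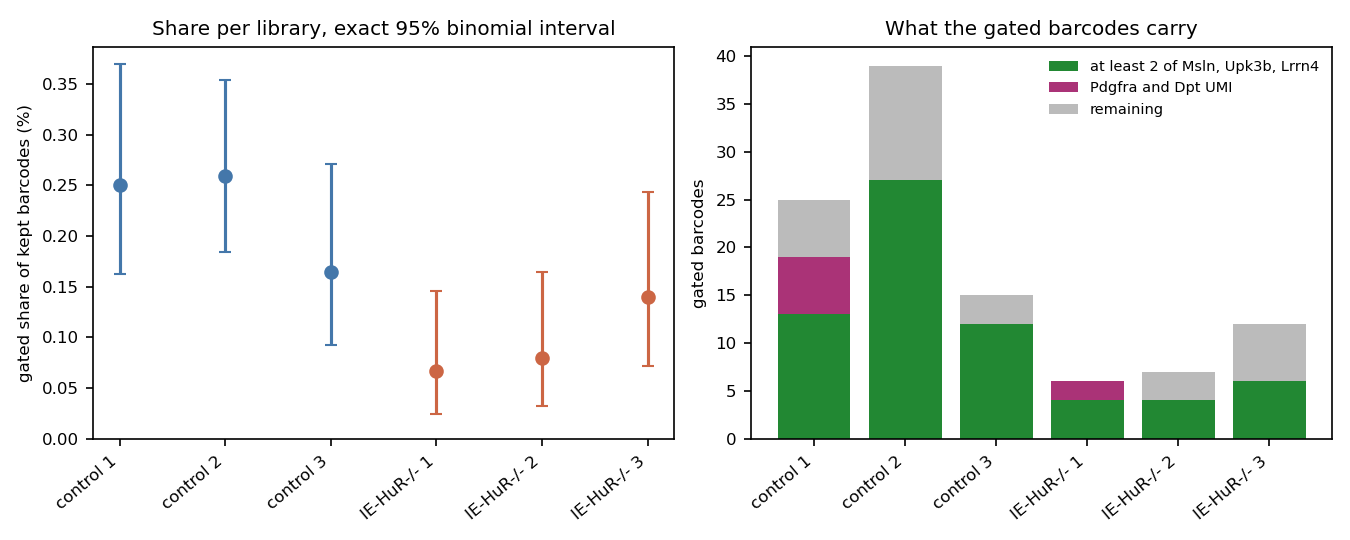
Left, the gated share of barcodes in percent in each library with its exact 95% binomial interval. Right, the number of gated barcodes per library by the markers they carry. All 3 control shares are above all 3 IE-HuR-/- shares, and barcodes with Pdgfra and Dpt are in replicate 1 of each label.

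Elavl1, which encodes HuR, had 16, 12 and 5 UMIs in the control and 1, 1 and 8 in the IE-HuR-/- sums, too few for the test. On the scale of CPM it was at 55.9, 45.5 and 28.3 against 16.2, 18.2 and 111, and the groups overlapped. In all other barcodes it was at 32.0, 34.4 and 32.3 CPM in the control and 36.2, 34.9 and 37.1 in the IE-HuR-/- libraries. In all other barcodes the target RNA was thus no lower under that label. Those barcodes mix epithelial cells with others, such as barcodes with a Ptprc UMI, so this is not the level in epithelial cells alone. The paper reported the loss of HuR as protein, by immunostaining of the epithelium. In the gated sums the direction rests on IE-HuR-/- replicate 3, without which the log2 ratio turned from 0.11 to -0.77. Counts per gene do not show which exons were read, so this does not check the labels, and each direction by label rests on the labels as given.

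By label 19 RNAs differed in the gated sums, with 17 higher under the IE-HuR-/- label (0.829% of those tested) and 2 lower (0.0975%). Without TMM scaling 20 were called, 7 of them lower, and without control replicate 2 most calls were lower, as given below. The 17 were led by RNAs of antigen presentation and of the response to interferon. The libraries of the labels did not overlap for any of the 19, and over all RNAs tested they did not overlap for 12.6%. Of the 19, 12 were under the level of the filter (80.4 CPM) in every control library, as were 39 of all 2051 tested. The 2 lower ones were under it in every IE-HuR-/- library, as were 26 of all tested. An RNA that passed through the libraries where it is high had to differ. Without the filter 18 of the 19 were called, among 117 in all, of which 70 were lower, so the split by direction turned.

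MHC class II RNAs, which present extracellular antigens and are inducible by interferon gamma in many cells, were called for 4 of 7 list members, all higher, beside 0.829% of all RNAs tested, and the other 3 were too low for the filter, H2-DMb1 with 7, 5 and 5 UMIs in the control and 1, 0 and 4 in the IE-HuR-/- sums among them. All 4 were under the level of the filter in each control library and so passed it through the libraries where they are high. Cd74, the invariant chain, had 14, 9 and 6 UMIs in the control and 39, 49 and 133 in the IE-HuR-/- sums. This was 49.9 ± 11.0 and 1541 ± 828 TMM-scaled CPM of the tested RNAs (SD, n = 3), with a log2 difference of 4.91 ± 0.48 (SE, edgeR adjusted p = 0.000152). H2-Aa had 3, 5 and 1 UMIs against 9, 11 and 31, with a log2 difference of 4.44 ± 0.55. H2-Eb1 rose by 4.52 ± 0.58 and H2-Ab1 by 3.07 ± 0.50 on the log2 scale, and the last lost its call when replicate 3 of either label was left out. One barcode of IE-HuR-/- replicate 3 held 118 of the 221 Cd74 UMIs on that side, and had no Lyz2, Cd68, Csf1r, C1qa, Itgax or Ptprc UMI. The same barcode held 55 of the 58 Tagln UMIs of that library. In IE-HuR-/- replicate 1 a single barcode held 36 of the 39 Cd74 UMIs, and in replicate 2 those with most held 21 and 15 of 49. Pooled over the libraries of a label, whose barcodes are not replicates, Cd74 was detected in 16 of 25 gated barcodes of the IE-HuR-/- and in 15 of 79 of the control libraries. In the Cd3 barcodes it was detected in 52.0% and 20.6%, at median depths of 4564 and 4305 UMIs against 4805 and 8075 in the gated. By library 3 of 25, 7 of 39 and 5 of 15 gated barcodes of the controls had it and 20.8%, 22.6% and 16.2% of the Cd3 barcodes. In the IE-HuR-/- libraries these were 3 of 6, 6 of 7 and 7 of 12, beside 51.3%, 49.2% and 55.6%. H2-Aa, pooled in the same way, was detected in 14 of 25 gated barcodes of the IE-HuR-/- and in 7 of 79 of the control libraries. In the Cd3 barcodes H2-Aa was detected in 36.6% and 11.7%. By itself, detection of Cd74 and H2-Aa does not tell whether the gated cells expressed them. The part of free RNA in their differences was not tested. These RNAs also rose in all other barcodes, Cd74 by 2.30 and H2-Aa by 2.73 on the log2 scale.

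MHC class I RNAs were called in 3 of 7 tested members, all higher, beside 0.829% of all RNAs tested. Of the 7, 3 were under the level of the filter in each control library. The member too low to test, H2-Q4, was at 21.0, 41.7 and 17.0 CPM in the control and 162, 18.2 and 111 in the IE-HuR-/- libraries, and the groups overlapped. H2-Q7, a class Ib molecule, had 4, 8 and 0 UMIs in the control and 25, 13 and 19 in the IE-HuR-/- sums (log2 difference 4.26 ± 0.55 SE, edgeR adjusted p = 0.00104). Tap1, the peptide transporter that loads class I molecules, had 4, 2 and 1 UMIs against 14, 9 and 8 (4.10 ± 0.63, edgeR adjusted p = 0.00402). H2-D1, a classical class I molecule, had 185, 131 and 152 UMIs against 120, 104 and 174 in the shallower sums (1.74 ± 0.37, edgeR adjusted p = 0.0341), and at 0.78 without barcodes with at least 3 epithelial markers (edgeR adjusted p = 0.979). For H2-K1 and B2m the log2 differences were 1.28 and 1.32 with edgeR adjusted p values of 0.188 and 0.211. Psmb10, an immunoproteasome subunit, rose by 1.59 ± 0.33 (edgeR adjusted p = 0.0317), and was not called without the 7 barcodes with more epithelial than gate UMIs (1.49, edgeR adjusted p = 0.0532). Leaving out 1 library ended the call of H2-D1 and of Psmb10 in 6 of 6 cases, with edgeR adjusted p up to 0.241 and 0.266, that of Tap1 in 4 of 6 (up to 0.210) and that of H2-Q7 in 1 of 6 (0.0882). H2-Q7 has near-identical relatives among which reads may have been split.

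Of 20 members of the interferon response list 12 were tested, 4 of which passed the filter through the IE-HuR-/- libraries alone, and 4 were called, all higher, beside 0.829% of all RNAs tested. Interferon-inducible GTPases defend cells against intracellular pathogens. None of the lists is of these GTPases, so those named here are given singly, with no test of the group. Igtp, Gbp7, Iigp1, Gbp6 and Irgm2 were under the level of the filter in every control library, so they passed it through the IE-HuR-/- libraries. Igtp had 3, 11 and 4 UMIs in the control and 41, 18 and 9 in the IE-HuR-/- sums, and rose by 3.95 ± 0.63 on the log2 scale (SE, edgeR adjusted p = 0.0137). Gbp7 and Gbp2, both on the list, rose by 2.29 ± 0.40 and 1.77 ± 0.38. Outside the list Iigp1 had 5, 18 and 10 UMIs against 69, 31 and 16 and rose by 3.84 ± 0.64, Gbp6 rose by 3.95 ± 0.73 and Irgm2 by 2.67 ± 0.46. Without 1 library the call of Gbp2 was lost in 6 of 6 cases, those of Igtp, Iigp1 and Gbp7 in 3 of 6, that of Irgm2 in 1 of 6 and that of Gbp6 in 2 of the 3 cases that tested it. Gbp6, Iigp1 and Irgm2 belong to families of similar genes. Members of the list with no call included Ifit1 at 0.45 and Ifi27 at 0.02 on the log2 scale, and Isg15 was too low to test.

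Of the complement list C3 was the most abundant in the gated barcodes, at 9454 CPM, while C1rb had 1 UMI and Cfd had 0. C4b, which encodes complement C4, had 24, 21 and 25 UMIs in the control and 54, 32 and 51 in the IE-HuR-/- sums, or 131 ± 49.5 and 985 ± 120 TMM-scaled CPM, with a log2 difference of 2.92 ± 0.38 (SE, edgeR adjusted p = 0.00104). It lies in the MHC region of chromosome 17 (GRCm38, 34728380 to 34743882, minus strand), and its copy C4a is so alike that reads may be shared. Cfb, complement factor B, had 81, 96 and 69 UMIs against 84, 54 and 67 and rose by 1.76 ± 0.34 (edgeR adjusted p = 0.0190). Its call was lost without any 1 of the 6 libraries (edgeR adjusted p between 0.0507 and 0.144), without TMM scaling (0.0525) and after thinning all sums to equal totals (0.0609). Of the 6 tested members of the complement list, which holds C4b but not Cfb, 1 was called, beside 0.926% of all RNAs tested, and all 6 were higher with a median of 0.97. C3 was at a log2 difference of 1.03 ± 0.32 with no overlap of the libraries and an edgeR adjusted p of 0.223.

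The 2 lower RNAs were of enterocytes. Both were under the level of the filter in every IE-HuR-/- library and so passed it through the control libraries, where they are high. Cyp3a11, a detoxifying cytochrome P450, had 282, 76 and 201 UMIs in the control and 1 in each of the IE-HuR-/- sums, and decreased by 5.51 on the log2 scale (SE 0.70). Guca2b, which encodes uroguanylin, had 114, 38 and 49 UMIs against 1, 1 and 3, and fell by 3.25 (SE 0.60). In control replicate 1 a barcode with 52293 UMIs and no mesothelial marker held 256 of the 282 Cyp3a11 UMIs. Without the 7 barcodes with more epithelial than gate UMIs the log2 differences were -4.28 for Cyp3a11 and -1.88 for Guca2b, with edgeR adjusted p values of 0.264 and 0.184. In that setting 25 RNAs were called, none of them lower, and 16 of them were among the 19. Without 1 library Guca2b was not called in 5 of 6 cases and Cyp3a11 in 2 of 6. Without the 7 barcodes and those with a Pdgfra UMI, Cyp3a11 was at -4.68 (edgeR adjusted p = 0.314). A replicate block in that setting gave -4.91 for Cyp3a11 (edgeR adjusted p = 5.66e-05), which was a call. Guca2b was at -1.83 there and was not called (edgeR adjusted p = 0.217).

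**Figure D4:**
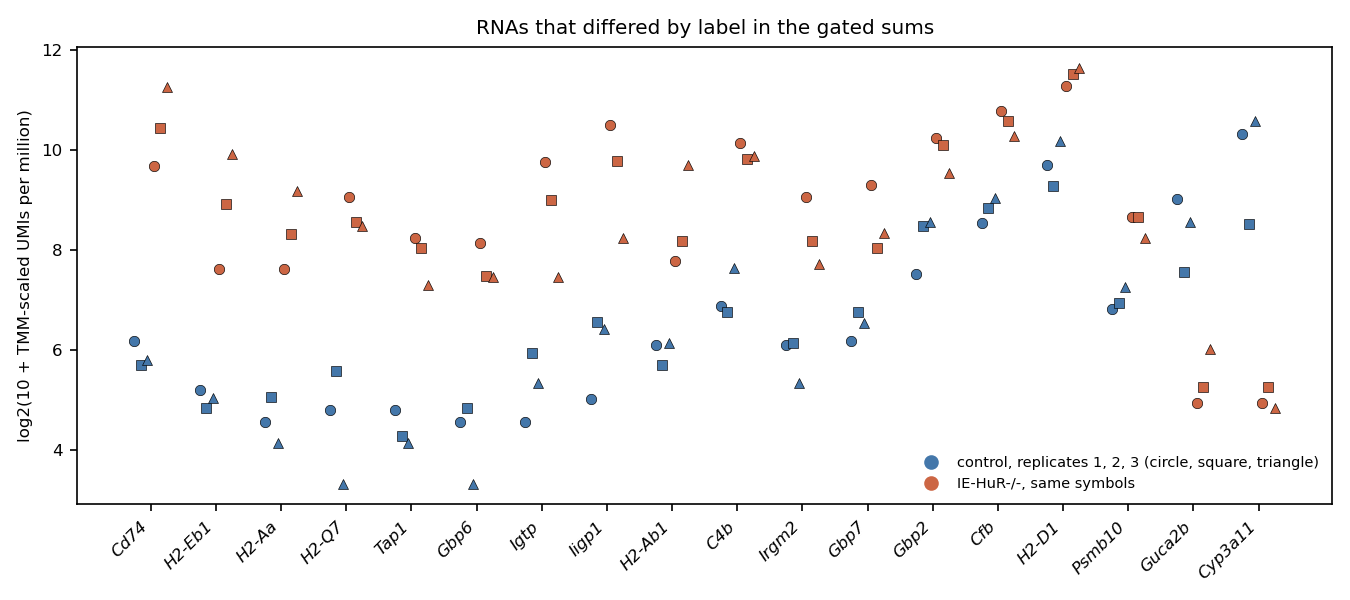
Level of 18 of the 19 RNAs called by label, as log2(10 + TMM-scaled CPM of the tested RNAs), in each library and ordered by log2 difference. For all 18 the 3 control and the 3 IE-HuR-/- libraries are separate, and the spread within the IE-HuR-/- libraries is wide for Cd74 and H2-Eb1, highest in replicate 3, and for Igtp and Iigp1, highest in replicate 1.

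Few barcodes stood behind each call. When, for each RNA, the barcode with most of its UMIs was left out of every library, 18 of 19 stayed separated between the labels and all 19 kept their direction. Cfb was the exception, at 323.9 CPM in IE-HuR-/- replicate 2 and 367 in control replicate 2. Restricted to the barcodes with at least 2 mesothelial markers the test called 25 RNAs, 16 of them among the 19. Without any single library between 5 and 38 RNAs were called. Leaving out IE-HuR-/- replicate 1 gave 5, leaving out control replicate 3 gave 7, leaving out IE-HuR-/- replicate 3 gave 11 and leaving out control replicate 2 gave 38, of which 26 were lower, so that the split by direction turned. Cd74, H2-Aa, C4b and H2-Eb1 were called in each alternative that tested them.

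Whether these differences were particular to gated barcodes was tested as a class by label interaction against all other barcodes of the same libraries. The interaction was called for 16 of 2051 RNAs (0.78%), 14 with a more positive and 2 with a more negative label effect in gated barcodes. Among them were 8 of the 19 called by label, with C4b, H2-Q7, Tap1, Irgm2, Igtp, Gbp6 and Cfb in that number. Tap1, H2-Q7, Irgm2, Igtp and Gbp6 were under the level of the filter in each control gated sum, so they entered through the IE-HuR-/- sums, and a positive gated effect was fixed by the filter. Tap1 differed by 4.10 in gated and by 0.32 in other barcodes on the log2 scale (interaction 4.01 ± 0.54 SE, edgeR adjusted p = 0.0121), and Cfb by 1.76 and -0.35 (interaction 2.24 ± 0.32, edgeR adjusted p = 0.0128). For Iigp1 the label effect was 3.84 in gated and 4.05 in other barcodes and for Gbp2 1.77 and 1.85, and for Cd74 the interaction of 2.65 ± 0.57 did not pass (edgeR adjusted p = 0.0684). Of the remaining 8, 6 had a negative label effect in other barcodes and a positive value in the gated sums, with the antioxidant enzyme Mgst1 at -1.15 and 0.76, Dbp at -1.66 and 0.10, Hpgd at -0.94 and 1.41, Tsc22d1 at -0.97 and 0.57 and Nfix at -1.21 and 0.38. Xaf1, an interferon-inducible RNA, was the other at -1.07 and 1.76. The more negative ones were Tgm2, a transglutaminase, at 2.16 in other and -0.26 in gated barcodes, and the BMP antagonist Nbl1 at 1.11 and -0.46. The interaction was fragile: leaving out replicate 2 or 3 of the controls, or 1 or 2 of the IE-HuR-/- libraries, left 0 RNAs called, with 114, 81, 292 and 302 at an unadjusted p under 0.05 by edgeR, and DESeq2 was not run for it.

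**Figure D5:**
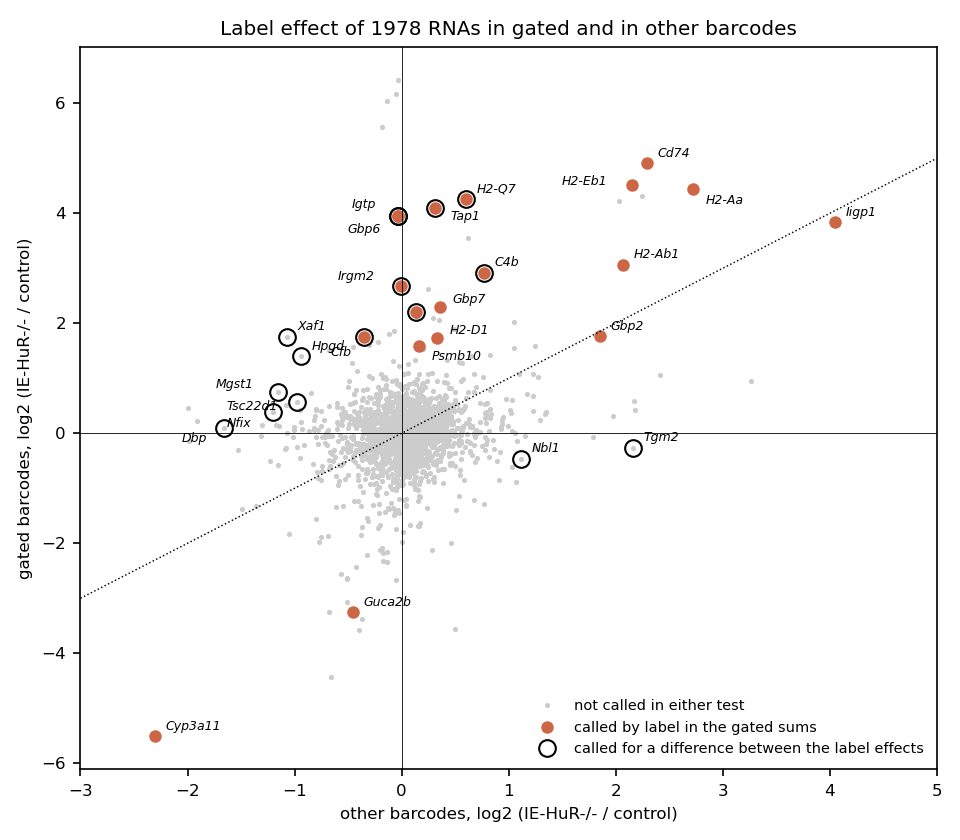
Label effect, as log2 of IE-HuR-/- over control, in all other barcodes (x axis) and in gated barcodes (y axis) for the 1978 RNAs with a value in both. Filled circles are the RNAs called in gated sums, rings mark RNAs called for the interaction and the dotted line is equality. Iigp1 and Gbp2 lie on the line, whereas Igtp, Gbp6, Tap1 and H2-Q7 are near 4 in gated and under 1 in other barcodes.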

How the data were processed

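The authors deposited, for each of 6 libraries, Cell Ranger tables of raw UMI counts, for 32285 mouse features and each barcode. The matrix headers name version 6.1.2 and the submitters' processing notes the build mm10, whereas the methods name another version and a human reference. The labels name a 5′ kit and the methods a 3′ kit. Counts were summed per library over the gated barcodes and compared in R 4.3.3 by the quasi-likelihood test of edgeR 4.0.16 (TMM scaling, filterByExpr at min.count 10 and min.total.count 15, robust fit, adjusted p under 0.05), so that libraries were the replicates. DESeq2 1.42.0 served as an alternative. The interaction was fitted on gated and other sums with the library as a term. Levels are CPM, UMIs relative to all UMIs of the gated sum, or TMM-scaled over the tested RNAs where stated. Each library is 1 animal. The test was also tried on simulated counts. No doublet caller was run. Of barcode strings, 435 occurred in more than 1 library, 3 gated barcodes among them, and none was gated in both.

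The members, the 39 marker and pathway lists and the rule for named RNAs were chosen with earlier results of these data known. Named were the gate RNAs, Elavl1, niche factors with at least 20 UMIs, the 25 largest ratios over other barcodes (at least 20 UMIs in all and 1 in at least 4 libraries), the 10 largest rises and falls among called RNAs and called list members. Irgm2, Cfb, Psmb10, RNAs of the interaction and single list members with no call were named after their values were seen. Gene positions are from GENCODE M21 (GRCm38). The authors' clusters were not used here. All counts include 1 called RNA whose values are not reported here.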

Additional observations from a re-analysis of the deposited data

Results flagged for a closer look

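For 16 RNAs the difference between the labels was not the same in gated and in other barcodes, by the edgeR interaction test. Among the RNAs called by label the interaction on the log2 scale was 4.26 for Gbp6, 4.08 for Igtp, 4.01 for Tap1, 3.85 for H2-Q7, 2.81 for Irgm2, 2.38 for C4b and 2.24 for Cfb. Gbp6, Igtp, Tap1, H2-Q7 and Irgm2 were under the level of the filter in each control gated sum, so they were tested through the IE-HuR-/- sums where they are high, and a positive gated effect was fixed by that. With other barcodes restricted to those without a Ptprc UMI all 16 were called again. Gated sums are far shallower than the sums of other barcodes, and the part of depth in these values was not tested.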

How the results depend on the processing

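The share of gated barcodes of the IE-HuR-/- libraries was the lower one under all 17 alternatives, and without 1 library its log2 ratio was between -1.61 and -1.03. None of the 19 called RNAs turned its direction in any alternative. The number called by label was 32 with at least 4 gate RNAs (11 of them lower), 34 with DESeq2 (12 lower), 117 without the filter on low counts (70 of them lower), 9 with counts thinned to the lowest total, which left 794 RNAs to test, and 0 without barcodes with at least 3 epithelial markers, which left 178 RNAs (8 at an unadjusted p under 0.05). Of the 19, H2-D1 alone was tested there, at 0.78 against 1.74. Krt8 and Krt19 are among those markers. Without barcodes with a Pdgfra UMI and those with more epithelial than gate UMIs the number called by label was 49, 8 of them lower. That setting was chosen after seeing the data, as were the alternatives by mesothelial markers and by top barcodes. Without 1 library the number was 5 to 38. The interaction was called for 10 RNAs without TMM scaling, 68 without the filter, 25 against other barcodes without Ptprc, 43 without both kinds of barcodes, 0 without those with at least 3 epithelial markers (4 at an unadjusted p under 0.05) and 0 to 8 without 1 library. The cause was not tested.

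Replicate numbers are shared by the labels, but the deviations of same-numbered libraries correlated at 0.12, -0.17 and -0.02, so the numbers were not taken as pairs. With a replicate block 18 RNAs were called, 6 of them lower and 14 of them among the 19, and the calls of Gbp6, H2-D1, Cfb, Gbp2 and Psmb10 were lost (edgeR adjusted p between 0.0592 and 0.119). There were 60 without both kinds of barcodes, 18 of them lower. Log2 ratios of median UMIs and genes turned to 1.51 and 0.99 without barcodes with at least 3 epithelial markers, and that of the mitochondrial share to 0.016 once barcodes under 500 genes or over 25% mitochondrial UMIs were left out. The median ratio of the 25 leading RNAs moved to 6.46 over other barcodes without Ptprc. The log2 ratio of Elavl1 was 0.11 and between -0.77 and 0.42 without 1 library. TMM scaling moved the median of all RNAs from -0.09 to 0.03. The 25 gated barcodes and 189235 UMIs of the IE-HuR-/- libraries limit every comparison by label.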
